A study of Mus musculus with 25 samples.

Results

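Pentose phosphate pathway enzymes and 3 further NADPH-producing dehydrogenases, 10 genes in all, were followed in the esophagus of mice with altered NRF2 signalling. The genes were chosen by symbol: G6pdx, Pgls and Pgd of the oxidative branch, Rpia, Rpe, Tkt and Taldo1 of the non-oxidative branch, and Me1, Idh1 and Idh2. All 10 were among the 19094 genes listed for both pups and adults (21106 listed for pups, 19942 for adults), and all 10 passed the filter on low values in both tables. The rule is a list of symbols and sets no threshold on a measured value, but the genes were proposed with earlier results of these data known.

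RNA of whole esophagus was sequenced from mice in which NRF2, the transcription factor encoded by Nfe2l2, was mutated, or in which its adaptor for degradation, KEAP1, was deleted. The L30F knock-in puts phenylalanine in place of leucine at codon 30 of NRF2. The pup groups, 7 to 10 days old and with constitutive Cre in the mutants, were NRF2L30F/L30F::K5Cre (L30F homozygous, 3 libraries), KEAP1flox/flox::K5Cre (KEAP1-deficient, 3 libraries) and wild type (3 libraries). The adult groups, 6 to 9 weeks old, with inducible CreERT2 in the mutants, and taken 1 week after tamoxifen (100 μg per g body weight), were NRF2L30F/+::K5CreERT2 (L30F heterozygous), NRF2L30F/L30F::K5CreERT2 (L30F homozygous), KEAP1flox/flox::K5CreERT2 (KEAP1-deficient) and wild type, with 4 libraries each. By its name Cre was driven by the keratin 5 promoter, which is active in basal squamous epithelium, while the libraries also hold muscle, connective tissue and blood. The wild-type genotype is given without Cre, although the titles file it under the Cre experiment. Nothing in the labels says that the libraries of a group came from separate animals, so p-values measure the spread between libraries.

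The oxidative branch of the pathway makes NADPH and a pentose phosphate: in its later steps 6-phosphogluconolactonase opens a lactone, and 6-phosphogluconate dehydrogenase passes electrons to NADP. The non-oxidative branch interconverts pentose phosphates with intermediates of glycolysis, through an isomerase, an epimerase, transketolase and transaldolase. Cytosolic malic enzyme and isocitrate dehydrogenase 1 make NADPH outside the pathway, and isocitrate dehydrogenase 2 does so in mitochondria. NRF2 is known to activate several of these genes by binding, as a dimer with a small MAF protein, to antioxidant response elements with the core TGACNNNGC.

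The 300 bases around RefSeq transcription starts (250 before, 50 after, GRCm38.p6) were searched for that core on both strands, with no other motif searched. It occurred in 3 of the 10 genes and in 3 of their 13 windows, against 14% of 27025 genes and 12.4% of 32851 windows overall. Those 3 genes were G6pdx, Me1 and Pgd. The matches are printed 5′ to 3′ on the gene's strand, with the core in capitals, and are a description of letters, not a record of binding.
G6pdx, chrX:74428919-74428947, minus strand: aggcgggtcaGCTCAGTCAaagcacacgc
Me1, chr9:86695902-86695930, minus strand: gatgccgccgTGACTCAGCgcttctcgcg
Pgd, chr4:149166061-149166089, minus strand: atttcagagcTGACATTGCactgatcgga
In G6pdx the core lies on the other strand, where it reads TGACTGAGC, at bases -57 to -49 from the start. The Me1 match covers bases -6 to 3 at 1 of its starts and the Pgd match bases 4 to 12 at 1 of its starts. The other 7 genes had no such letters in these windows. The Taldo1 window was not found in a reference transcript of that gene, so its place and strand could not be checked. Since G6pdx moved most in pups, its upstream sequence is given whole, with the core again in capitals.
G6pdx upstream, chrX:74428881-74429130, minus strand: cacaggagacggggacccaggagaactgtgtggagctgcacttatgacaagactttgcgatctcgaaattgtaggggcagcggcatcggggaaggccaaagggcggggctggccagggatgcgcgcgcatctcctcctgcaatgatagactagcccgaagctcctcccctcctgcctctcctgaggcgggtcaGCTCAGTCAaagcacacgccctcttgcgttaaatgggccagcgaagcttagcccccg

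Depth over listed genes was 18.8 to 19.7 M (mega) reads in all pup libraries. Adult depth followed genotype: heterozygous libraries had 12.8 to 16.9 M reads, homozygous ones 10.9 to 11.6 M, KEAP1-deficient ones 22.5 to 31.3 M and wild-type ones 27.5 to 32.3 M. None of the 10 squamous markers was at 0 in any group. As a check of the labels, Keap1 averaged 779.9 ± 50.5 normalised counts in KEAP1-deficient pups and 1069.2 ± 21.8 in wild-type pups (SD, n = 3 each; log2 fold change -0.46, adjusted p = 0.012 by limma). In adults it averaged 757.4 ± 40.6 with KEAP1 loss and 1148.3 ± 49.8 in wild type (n = 4 each; -0.60, adjusted p = 8e-06 by limma). In pups that call was lost with adipose markers (-0.47, SE 0.17, adjusted p = 0.061) or striated muscle markers (-0.31, SE 0.19, adjusted p = 0.26) as a covariate. Library 3 of the pup homozygotes stood apart. It had 0 Ddx3y and 47281.2 normalised counts of Xist, against at least 542.1 and at most 77.1 in every other library, and it was the lowest of its group in 10 of the 10 genes. A low rank was not particular to that library: library 3 was also lowest in 9 of the 10 genes in KEAP1-deficient pups and in 6 in wild-type pups. Without library 3 of the pup homozygotes, 9 of the 10 genes still passed the test against wild type.

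Values below are normalised read counts, with SDs over libraries. Log2 fold changes are on the log2(value + 1) scale with standard errors (SE). Adjusted p-values are from limma over all genes tested, except those for differences between ages. A gene is said to have risen or fallen where the adjusted p was under 0.05. Pups and adults were normalized separately, so levels were tested only within an age. With libraries scaled instead to CPM (a gene's share of its library's reads over listed genes, on the usual mega scale), a choice made after seeing the data, the median over all genes moved to -0.24 in L30F homozygous pups and -0.38 in KEAP1-deficient pups, and member values moved down with it.

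In pups most of the enzymes rose together. In L30F homozygotes 8 of the 10 rose and Idh2 fell, against 22% of all 21007 genes rising and 17.1% falling (39.2% in either direction). In KEAP1-deficient pups 9 rose and Idh2 fell, against 26.3% and 23.2% of all genes (49.5% in either direction). The median log2 fold change of the 10 was 1.73 in L30F homozygotes and 1.98 in KEAP1-deficient pups, beside -0.03 and -0.05 over all genes. In adults fewer members were called. In heterozygotes 2 rose and 1 fell, where 4.8% of all genes rose and 4.9% fell (9.7% of 19857 in either direction). In adult homozygotes 3 rose and 2 fell, beside 11.8% and 10.4% of all genes (22.3%). With KEAP1 loss in adults 4 rose and 2 fell, beside 24.1% and 22.7% of all genes (46.8%), so the share of members called there was close to the background. The medians were 0.10, 0.10 and 0.19 in adult heterozygotes, homozygotes and KEAP1-deficient mice, beside 0.01, -0.01 and -0.01 over all genes.

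**Figure D1:**
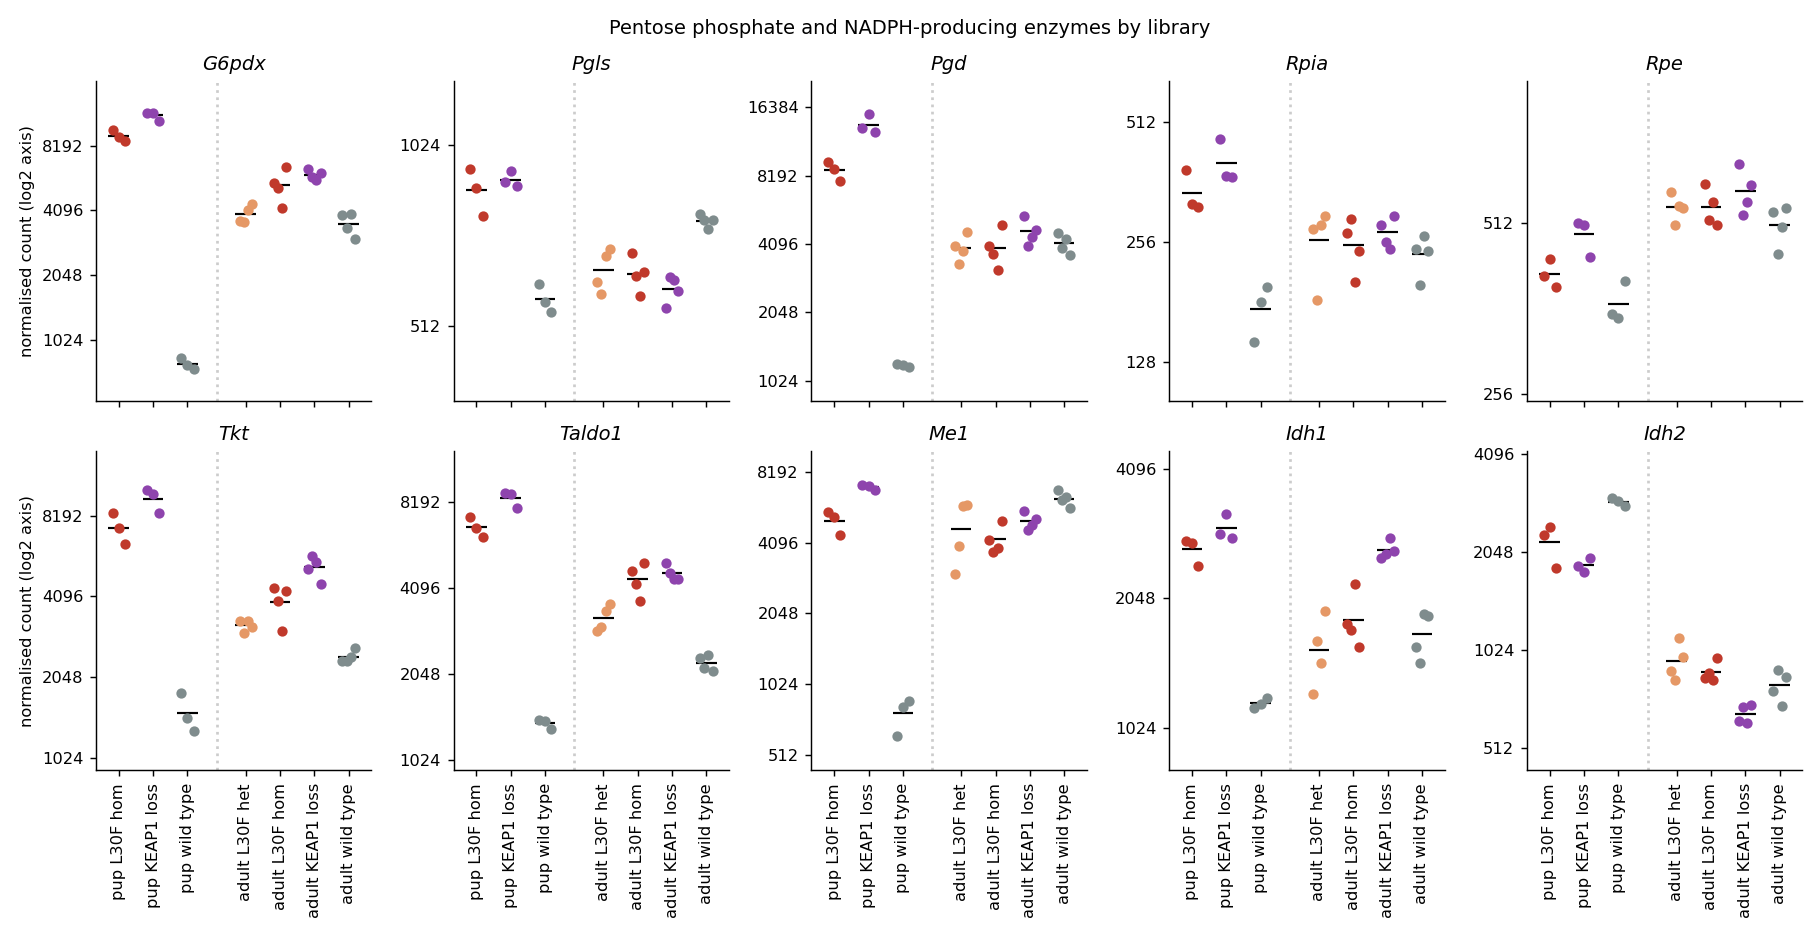
Normalised counts (log2 axis, range set for each gene) of the 10 genes in each of 25 libraries; points are libraries, horizontal lines group means, and the dotted line separates pups from adults, which were normalized separately. In pups the L30F homozygous and KEAP1-deficient points of G6pdx, Pgd, Tkt, Taldo1 and Me1 lie far above wild type, while in adults only Tkt and Taldo1 of every mutant group lie above wild type without overlap, and Pgls of every mutant group lies below it.

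G6pdx (ENSMUSG00000031400) belongs to the oxidative branch. Its counts were 9638.6, 8980.4 and 8592.3 in L30F homozygous pups, 11656.2, 11541.2 and 10704.7 in KEAP1-deficient pups, and 852.0, 785.3 and 753.0 in wild-type pups. Every mutant library lay far above every wild-type library, with KEAP1 loss the higher of the mutants. The log2 fold change was 3.51 (SE 0.07, adjusted p = 4.4e-10, 11.4-fold) in L30F homozygotes and 3.83 (SE 0.07, adjusted p = 1.9e-10, 14.2-fold) in KEAP1-deficient pups. In adults the counts were 3662.5, 3609.5, 4104.2 and 4405.8 in heterozygotes, 5515.0, 5206.5, 4204.8 and 6543.4 in homozygotes, 6363.9, 5878.0, 5683.6 and 6095.2 in KEAP1-deficient mice, and 3887.5, 3387.5, 3939.6 and 3011.7 in wild type. Homozygous and KEAP1-deficient libraries all lay above wild type, and heterozygous ones overlapped it. G6pdx rose by 0.58 (SE 0.12, adjusted p = 0.0026) in adult homozygotes and by 0.76 (SE 0.12, adjusted p = 6.2e-05) with adult KEAP1 loss. In heterozygotes its log2 fold change was 0.15 (adjusted p = 0.44, 95% interval -0.10 to 0.40). G6pd2, a retrocopy of G6pdx, was not among the listed genes, so any reads shared between the copies could not be examined.

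Pgd (ENSMUSG00000028961) encodes 6-phosphogluconate dehydrogenase, the second NADPH-making enzyme of the branch. Counts were 9422.5, 8759.6 and 7792.4 in L30F homozygous pups, 13255.1, 15278.6 and 12717.7 in KEAP1-deficient pups, and 1208.0, 1200.7 and 1169.7 in wild-type pups. The pup groups did not overlap, with KEAP1 loss highest. The log2 fold changes were 2.85 (SE 0.09, adjusted p = 5.2e-09, 7.23-fold) and 3.52 (SE 0.09, adjusted p = 1.2e-09, 11.5-fold). Adult counts were 3995.2, 3328.8, 3828.3 and 4646.0 in heterozygotes, 3992.7, 3691.1, 3151.8 and 4951.4 in homozygotes, 5464.8, 4004.1, 4403.4 and 4739.4 with KEAP1 loss, and 4555.9, 3930.1, 4320.4 and 3656.4 in wild type. All 4 adult groups overlapped. None of the adult effects passed the test: -0.06 in heterozygotes (adjusted p = 0.81), -0.07 in homozygotes (adjusted p = 0.73, 95% interval -0.36 to 0.21) and 0.17 with KEAP1 loss (adjusted p = 0.31, 95% interval -0.11 to 0.46).

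Pgls (ENSMUSG00000031807), the lactonase between these enzymes, rose in pups and fell in adults. Pup counts were 932.5, 869.3 and 780.4 in L30F homozygotes, 886.4, 925.4 and 874.7 in KEAP1-deficient mice, and 602.7, 561.2 and 539.9 in wild type. The mutant libraries all lay above wild type, with log2 fold changes of 0.60 (SE 0.08, adjusted p = 0.00033) and 0.66 (SE 0.08, adjusted p = 0.00011). Adult counts were 605.5, 578.9, 669.7 and 687.7 in heterozygotes, 678.4, 620.1, 574.7 and 631.1 in homozygotes, 548.1, 617.4, 610.5 and 586.6 with KEAP1 loss, and 786.4, 767.4, 741.6 and 766.9 in wild type. Here the mutant libraries all lay below wild type. Pgls fell by 0.27 (SE 0.07, adjusted p = 0.028) in heterozygotes, by 0.29 (SE 0.07, adjusted p = 0.0091) in homozygotes and by 0.37 (SE 0.07, adjusted p = 0.00047) with KEAP1 loss. The heterozygous call was lost without heterozygous library 1 or 2 or without wild-type library 1, 2 or 3 (adjusted p = 0.055 to 0.094), and the homozygous call with adipose markers as a covariate (-0.27, adjusted p = 0.061).

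Tkt (ENSMUSG00000021957), transketolase, moves carbon units between sugar phosphates and rose in every mutant group. Pup counts were 8360.1, 7364.7 and 6440.7 in L30F homozygotes, 10189.1, 9878.8 and 8368.3 in KEAP1-deficient mice, and 1782.2, 1436.4 and 1286.9 in wild type. Mutant and wild-type pups were far apart, with log2 fold changes of 2.30 (SE 0.14, adjusted p = 8.4e-07, 4.93-fold) and 2.67 (SE 0.14, adjusted p = 2e-07, 6.34-fold). In adults the counts were 3306.9, 2999.0, 3302.5 and 3161.0 in heterozygotes, 4395.1, 3938.0, 3029.6 and 4289.1 in homozygotes, 5182.3, 5767.8, 5488.3 and 4552.8 with KEAP1 loss, and 2355.2, 2348.2, 2429.6 and 2633.4 in wild type. Each adult mutant library exceeded each wild-type library. The rises were 0.39 (SE 0.10, adjusted p = 0.027) in heterozygotes, 0.67 (SE 0.10, adjusted p = 0.00036) in homozygotes and 1.10 (SE 0.10, adjusted p = 4.1e-07, 2.14-fold) with KEAP1 loss. Without heterozygous library 1 or 3, or wild-type library 1, 2 or 3, the heterozygous rise did not pass (adjusted p = 0.061 to 0.09).

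Taldo1 (ENSMUSG00000025503), transaldolase, also rose in every mutant group. Its pup counts were 7264.3, 6644.4 and 6187.6 in L30F homozygotes, 8837.7, 8748.6 and 7779.5 in KEAP1-deficient mice, and 1412.8, 1399.0 and 1319.5 in wild type. The pup log2 fold changes were 2.28 (SE 0.08, adjusted p = 1.2e-08, 4.85-fold) and 2.62 (SE 0.08, adjusted p = 3e-09, 6.13-fold), with no overlap. Adult counts were 2903.6, 2986.1, 3413.9 and 3608.5 in heterozygotes, 4688.4, 4236.4, 3686.8 and 5016.1 in homozygotes, 5022.4, 4632.8, 4412.2 and 4401.5 with KEAP1 loss, and 2324.7, 2151.0, 2391.0 and 2105.8 in wild type. Heterozygotes lay between homozygotes and wild type without overlapping either. Taldo1 rose by 0.52 (SE 0.09, adjusted p = 0.0038), 0.97 (SE 0.09, adjusted p = 4.7e-06) and 1.04 (SE 0.09, adjusted p = 3.1e-07) in adult heterozygotes, homozygotes and KEAP1-deficient mice. It was the largest log2 rise among the 10 genes in adult heterozygotes and homozygotes.

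Rpia (ENSMUSG00000053604), ribose 5-phosphate isomerase, makes the precursor of nucleotides. It ranged from 312.4 to 388.5 in L30F homozygous pups, 372.6 to 462.9 in KEAP1-deficient pups and 143.3 to 197.7 in wild-type pups. The mutant groups lay wholly above wild type, by 0.97 (SE 0.15, adjusted p = 0.00061) and 1.21 (SE 0.15, adjusted p = 8.8e-05). In adults the groups overlapped, at 183.4 to 296.4 in heterozygotes, 203.3 to 291.8 in homozygotes, 245.6 to 297.7 with KEAP1 loss and 199.4 to 264.4 in wild type, and the log2 fold changes were 0.11, 0.08 and 0.19 (adjusted p = 0.71, 0.76 and 0.33).

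Rpe (ENSMUSG00000026005), the epimerase, had the smallest log2 fold changes of the 10 genes in pups. It ranged from 395.3 to 442.6 in L30F homozygous pups, 447.1 to 512.0 in KEAP1-deficient pups and 348.7 to 405.6 in wild-type pups. Homozygotes overlapped wild type (log2 fold change 0.18, adjusted p = 0.18), and KEAP1 loss lay above it by 0.41 (SE 0.10, adjusted p = 0.006). With libraries scaled to CPM, these values were -0.03 and 0.06, and the second no longer passed (adjusted p = 0.6). Adult effects were 0.10, 0.10 and 0.20 in heterozygotes, homozygotes and KEAP1-deficient mice (adjusted p = 0.49, 0.42 and 0.067).

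Me1 (ENSMUSG00000032418) encodes cytosolic malic enzyme, which makes NADPH from malate and is abundant in fat. Pup counts were 5538.0, 5280.3 and 4396.6 in L30F homozygotes, 7175.7, 7142.9 and 6881.3 in KEAP1-deficient mice, and 616.0, 819.1 and 871.1 in wild type. All mutant pups were far above wild type, with log2 fold changes of 2.73 (SE 0.13, adjusted p = 1.3e-07, 6.63-fold) and 3.21 (SE 0.13, adjusted p = 3e-08, 9.28-fold). Adult counts were 3013.2, 3944.8, 5839.8 and 5886.6 in heterozygotes, 4208.9, 3719.1, 3879.4 and 5077.0 in homozygotes, 5559.2, 4626.3, 4865.0 and 5136.5 with KEAP1 loss, and 6836.1, 6207.8, 6410.0 and 5758.6 in wild type. Homozygous and KEAP1-deficient adults lay wholly below wild type, and the heterozygotes spread widely, with 2 libraries in the wild-type range. In homozygotes Me1 fell by 0.59 (SE 0.17, adjusted p = 0.022). That call was lost without homozygous library 2 or 3 or wild-type library 1 or 3 (adjusted p = 0.051 to 0.065), and with striated muscle markers as a covariate (-0.46, adjusted p = 0.1). The log2 fold changes of -0.48 in heterozygotes (adjusted p = 0.085) and -0.32 with KEAP1 loss (adjusted p = 0.14) did not pass in the fit over all adult groups. The heterozygous value passed without heterozygous library 3 (-0.61, adjusted p = 0.042) or 4 (-0.61, adjusted p = 0.032), and the KEAP1 value passed without heterozygous library 1 (adjusted p = 0.044) or with only the groups compared in the fit (adjusted p = 0.0049).

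Adipose markers also differed between adult groups. Summed over 10 markers they ranged from 841.6 to 1824.6 CPM in adult heterozygotes, 450.1 to 624.8 in homozygotes, 333.7 to 424.0 with KEAP1 loss and 649.4 to 1120.7 in wild type. Car3 made up the largest part of the sums, at 508.2 to 1221.4 CPM in heterozygotes and 342.6 to 558.6 in wild type. Of the 10 adipose markers 0 rose and 0 fell in adult heterozygotes, 0 and 2 in homozygotes, and 0 and 2 with KEAP1 loss. None was at 0 in all libraries of an adult group, although Lep had libraries at 0 in heterozygotes, homozygotes and wild type. With these markers as a covariate the Me1 value was -0.39 in homozygotes (adjusted p = 0.2) and -0.57 in heterozygotes (adjusted p = 0.046).

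Idh1 (ENSMUSG00000025950), the cytosolic and peroxisomal NADP-linked isocitrate dehydrogenase, ranged from 2432.3 to 2791.5 in L30F homozygous pups, 2823.9 to 3223.3 in KEAP1-deficient pups and 1140.4 to 1203.9 in wild-type pups. The groups of mutants lay above wild type by 1.18 (SE 0.08, adjusted p = 1.3e-06, 2.27-fold) and 1.35 (SE 0.08, adjusted p = 3.4e-07, 2.54-fold). In adults it ranged from 1228.2 to 1911.8 in heterozygotes, 1574.3 to 2213.3 in homozygotes, 2546.4 to 2830.9 with KEAP1 loss and 1446.3 to 1883.4 in wild type. KEAP1 loss lay above every other adult library and rose by 0.66 (SE 0.13, adjusted p = 0.00053). The effects of -0.13 in heterozygotes and 0.11 in homozygotes did not pass (adjusted p = 0.56 and 0.59).

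Idh2 (ENSMUSG00000030541), the mitochondrial NADP-linked enzyme, went the other way in pups. Counts were 2316.3, 2441.5 and 1834.2 in L30F homozygotes, 1863.5, 1786.6 and 1967.5 in KEAP1-deficient pups, and 2994.7, 2945.8 and 2845.1 in wild type. Every mutant pup lay below every wild-type pup. Idh2 fell by 0.42 (SE 0.10, adjusted p = 0.0073) and by 0.65 (SE 0.10, adjusted p = 0.00042). Adult counts were 883.4, 831.1, 1119.0 and 975.2 in heterozygotes, 842.4, 872.2, 828.4 and 967.7 in homozygotes, 620.8, 687.7, 612.7 and 695.0 with KEAP1 loss, and 770.2, 890.4, 691.9 and 847.5 in wild type. KEAP1-deficient libraries were the lowest as a group, and their highest value lay just inside the wild-type range. Idh2 fell by 0.29 (SE 0.10, adjusted p = 0.025) with adult KEAP1 loss, a call lost without KEAP1-deficient library 1 or 3 or wild-type library 2 or 4 (adjusted p = 0.066 to 0.088). It was also lost with adipose markers as a covariate (-0.21, adjusted p = 0.099) and in CPM (-0.20, adjusted p = 0.08). The values of 0.25 in heterozygotes and 0.14 in homozygotes did not pass (adjusted p = 0.12 and 0.34).

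**Figure D2:**
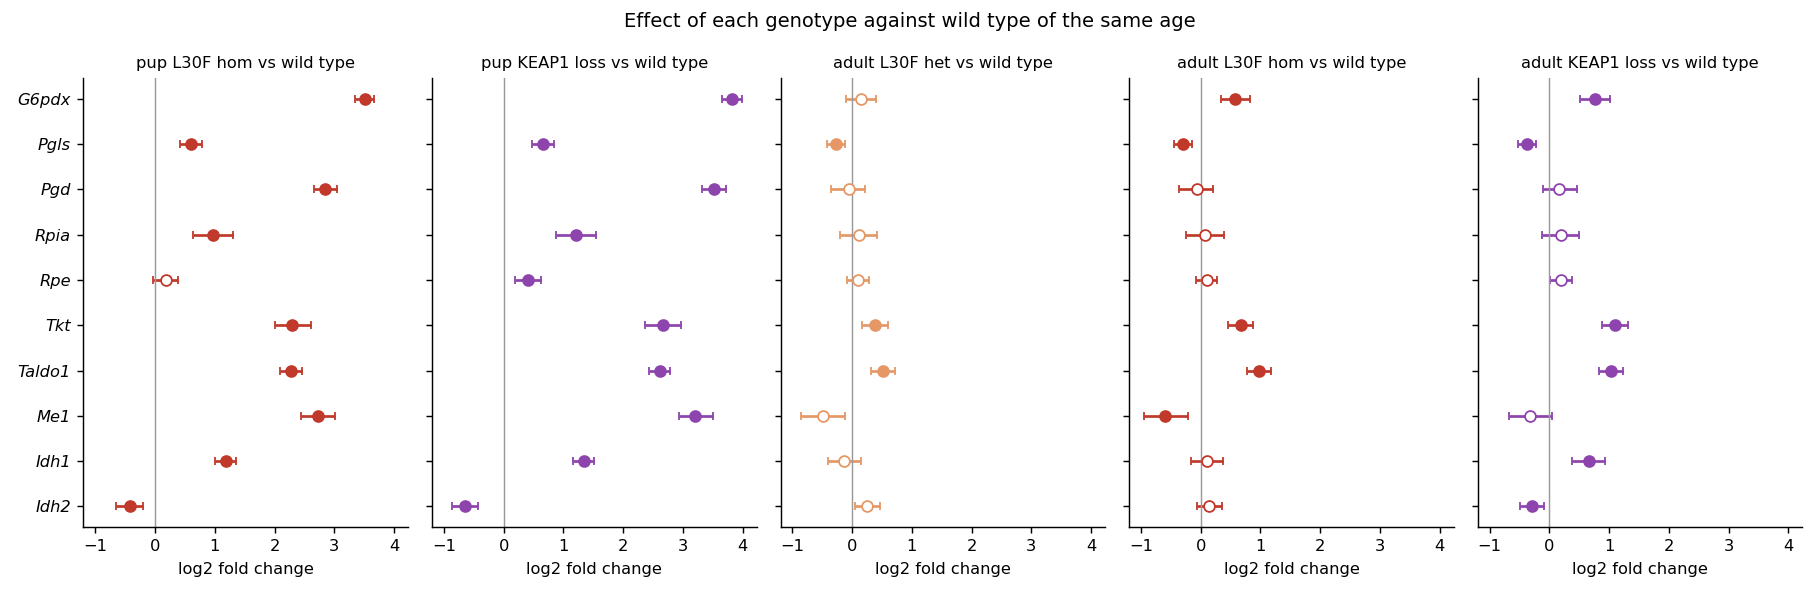
Log2 fold change of each gene against wild type of the same age, with 95% intervals from limma; filled points passed the test and open points did not. Pup effects reach 3.83 for G6pdx, adult effects stay between -0.59 (Me1, homozygotes) and 1.10 (Tkt, KEAP1 loss).

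These are bulk samples, in which fewer cells of a type and less RNA per cell cannot be told apart, and the makeup of the tissue differed between groups. Summed squamous markers ranged from 15054.0 to 17924.3 CPM in L30F homozygous pups, 18424.9 to 20430.6 in KEAP1-deficient pups and 10531.3 to 12921.1 in wild-type pups. Of the 10 squamous markers 6 rose and 2 fell in homozygous pups, and 7 rose and 2 fell with KEAP1 loss, while 7 of 8 fibroblast markers fell in each. Adult squamous sums were 37199.1 to 50936.0 in heterozygotes, 36781.3 to 41982.6 in homozygotes, 20665.8 to 25954.7 with KEAP1 loss and 56701.2 to 72381.7 in wild type. Of the 10 markers 0 rose and 2 fell in adult heterozygotes, 3 and 5 in homozygotes, and 2 and 5 with KEAP1 loss. In wild type the sum rested mostly on Krt4 and Krt13. Krt4 ranged from 157.1 to 1018.7 CPM with adult KEAP1 loss and 23579.8 to 34303.7 in wild-type adults. Krt14 went the other way, at 6034.2 to 7023.9 with KEAP1 loss and 459.4 to 520.2 in wild type. Striated muscle sums were 75738.4 to 92696.2 CPM in adult heterozygotes, 54591.4 to 73031.2 in homozygotes, 20698.6 to 30936.6 with KEAP1 loss and 55342.7 to 66957.3 in wild type. With adult KEAP1 loss 8 of 10 of these markers fell. Leukocyte sums were 512.8 to 738.8 in adult heterozygotes, 706.2 to 2458.9 in homozygotes, 2917.3 to 3625.6 with KEAP1 loss and 422.4 to 650.3 in wild type. Of 8 leukocyte markers 7 rose in adult homozygotes and 8 with adult KEAP1 loss. Fibroblast sums were 6908.5 to 15198.4 in adult heterozygotes, 10738.7 to 15238.2 in homozygotes, 17063.5 to 21930.4 with KEAP1 loss and 7026.2 to 8651.8 in wild type. Unlike in pups, 4 of the 8 fibroblast markers rose and 1 fell in adult homozygotes, and 5 rose and 1 fell with adult KEAP1 loss. With KEAP1 loss 7 of 8 smooth muscle markers fell in adults and 5 of 7 red cell markers fell in pups. Muscle markers differed in pups as well. Smooth muscle sums were 1547.5 to 3461.3 CPM in homozygous pups, 1375.8 to 1671.6 with KEAP1 loss and 3760.4 to 3944.1 in wild type. Of 10 striated muscle markers 1 rose and 4 fell in homozygous pups, and 0 rose and 2 fell with KEAP1 loss. With striated muscle markers as a covariate, 9 members passed against wild type in homozygous pups and 9 in KEAP1-deficient pups. Under the same covariate none passed in adult heterozygotes, where Taldo1 was 0.54 (SE 0.14, adjusted p = 0.14), Tkt 0.36 (SE 0.15, adjusted p = 0.38) and Pgls -0.18 (SE 0.10, adjusted p = 0.53). In adult homozygotes 4 passed, and Me1 did not. In KEAP1-deficient adults Tkt (1.15, adjusted p = 0.015) and Taldo1 (1.01, adjusted p = 0.02) did. G6pdx was then 0.84 (adjusted p = 0.092), Pgls -0.57 (adjusted p = 0.055), Idh1 0.13 (adjusted p = 0.83) and Idh2 -0.24 (adjusted p = 0.6) with adult KEAP1 loss. The striated muscle sums of heterozygotes and of KEAP1-deficient adults lay wholly outside the wild-type range. Calls lost with this covariate in these groups, here and below, therefore cannot tell muscle content from genotype. The part of squamous, smooth muscle, fibroblast, leukocyte and red cell markers in these results was not tested.

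The difference between ages was tested on the effects, adult minus pup. Of the 10 genes, 8 had a lower log2 fold change in adult than in pup L30F homozygotes and 1, Idh2, a higher one, where 19.9% and 13.6% of all 19031 genes did so (33.5% in either direction). For KEAP1 loss the counts were again 8 and 1, against 26.5% and 20.6% (47.1%). The largest differences were in Me1, -3.32 (SE 0.21, adjusted p = 4.1e-12) for L30F and -3.54 (SE 0.21, adjusted p = 5.3e-13) for KEAP1 loss. Pgd followed with -2.93 (SE 0.16, adjusted p = 2.5e-13) and -3.35 (SE 0.16, adjusted p = 7.8e-15), and G6pdx with -2.92 (SE 0.14, adjusted p = 2.6e-14) and -3.06 (SE 0.14, adjusted p = 3.6e-15). For Tkt and Taldo1, which still rose in adults, the differences were -1.64 and -1.31 for L30F (adjusted p = 1.9e-07 and 3.3e-09) and -1.57 for both with KEAP1 loss (adjusted p = 1.9e-07 and 5.5e-11). Rpe was the exception, at -0.08 (adjusted p = 0.7, 95% interval -0.34 to 0.19) and -0.21 (adjusted p = 0.2, 95% interval -0.48 to 0.06). With KEAP1 loss the Idh1 difference of -0.69 was -0.26 in CPM (adjusted p = 0.18) and the Rpia difference of -1.02 was -0.82 with striated muscle as a covariate (adjusted p = 0.22). The Idh2 difference with KEAP1 loss, 0.36 (SE 0.14, adjusted p = 0.038), was lost without any 1 of pup KEAP1-deficient libraries 1 and 2, pup wild-type libraries 1 to 3, adult KEAP1-deficient libraries 2 and 4 or adult wild-type libraries 1 and 3 (adjusted p = 0.052 to 0.098). Age, the kind of Cre, the time since recombination and the table changed together and cannot be told apart.

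**Figure D3:**
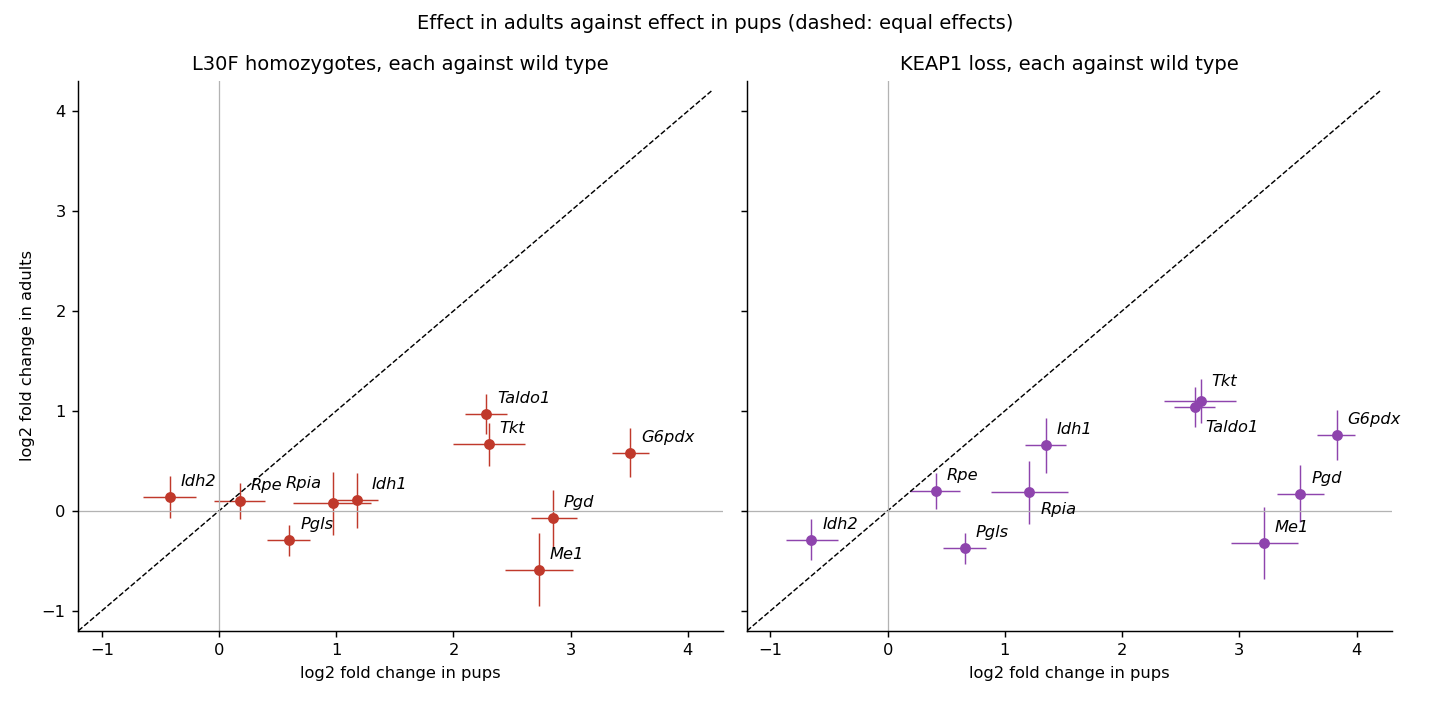
Log2 fold change against wild type in adults (vertical) and in pups (horizontal) for L30F homozygotes (left) and KEAP1 loss (right); bars are 95% intervals and the dashed line marks equal effects. G6pdx, Pgd and Me1 lie furthest below the line, Rpe lies near it, and Idh2 lies above it.

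The wild-type levels behind these effects also differed, which is given as a description because the tables were normalized separately. In CPM, G6pdx averaged 188.6 ± 20.7 in wild-type adults (SD, n = 4) and 47.8 ± 2.69 in wild-type pups (n = 3). Me1 averaged 334.5 ± 20.9 in wild-type adults and 46.2 ± 8.43 in wild-type pups, and Pgd 218.3 ± 18.8 in wild-type adults and 71.6 ± 0.493 in wild-type pups. Wild-type adults thus had several times the level of wild-type pups for these genes. Marker sums differed between them too: squamous sums were 56701.2 to 72381.7 CPM in wild-type adults and 10531.3 to 12921.1 in wild-type pups, and fibroblast sums 7026.2 to 8651.8 in wild-type adults and 27917.0 to 30059.2 in wild-type pups. The adult squamous sum rested mostly on Krt4 and Krt13. Krt4 was 23579.8 to 34303.7 CPM in wild-type adults and 3342.0 to 3671.4 in wild-type pups. Perp was 1242.2 to 1481 in adults and 358.9 to 440.5 in pups, and Dsp 3671.2 to 4665.8 and 1272.9 to 1726.1. Krt14 was 459.4 to 520.2 in adults and 143.8 to 228.2 in pups, and Pax9 222.1 to 278.5 and 85.5 to 106.1. Trp63 differed less, at 215.9 to 236.8 in adults and 119.0 to 164.5 in pups, as did Sox2, at 52.6 to 73.5 and 40.3 to 51.9. Krt15 alone of the listed squamous markers was lower in adults, at 638.3 to 895.5 against 1100.2 to 2025.3 in pups. The part of tissue makeup in these levels was not tested. With KEAP1 loss G6pdx averaged 337.7 ± 15.5 in adults and 535.1 ± 22.4 in pups, Me1 283.9 ± 23.5 in adults and 334.6 ± 6.93 in pups, and Pgd 261.8 ± 35.8 in adults and 650.7 ± 54.4 in pups. Idh2 had the opposite order in wild type, at 42.6 ± 5.23 in adults and 175.9 ± 2.86 in pups.

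Mutants of 1 age were also compared with each other. In pups L30F homozygotes were below KEAP1-deficient mice in 3 genes and above in 0, where 2.4% of all genes were lower and 1.76% higher (4.17%). Pgd was lower by a log2 difference of -0.67 (SE 0.09, adjusted p = 0.013), G6pdx by -0.32 (SE 0.07, adjusted p = 0.044) and Taldo1 by -0.34 (SE 0.08, adjusted p = 0.046). The Pgd call held without any 1 pup library (adjusted p = 0.013 to 0.044). The G6pdx call was lost without any pup library but wild-type library 1 (adjusted p = 0.061 to 0.13), and the Taldo1 call without any of the 9 (adjusted p = 0.052 to 0.13). The values of the other 7 genes did not pass, the widest being Me1 at -0.49 (adjusted p = 0.063, 95% interval -0.77 to -0.20).

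In adults the L30F dose could be compared directly. G6pdx was higher in homozygotes than in heterozygotes by 0.43 (SE 0.12, adjusted p = 0.021) and Taldo1 by 0.45 (SE 0.09, adjusted p = 0.0052), with 0 genes lower, where 8.07% of all genes were higher and 8.29% lower (16.4%). The G6pdx call was lost without homozygous library 1 or 4 (adjusted p = 0.057 and 0.054). It was also lost with only the groups compared in the fit (adjusted p = 0.073) and with striated muscle as a covariate (0.45, adjusted p = 0.055). With Ddx3y as a covariate neither the G6pdx nor the Taldo1 call held. Tkt was 0.28 (adjusted p = 0.074). Homozygotes were below KEAP1-deficient adults in Tkt (-0.43, SE 0.10, adjusted p = 0.0054) and Idh1 (-0.55, SE 0.13, adjusted p = 0.0049) and above in Idh2 (0.42, SE 0.10, adjusted p = 0.0048), with 13.5% of all genes lower and 12.9% higher (26.4%). For Taldo1 that difference was -0.07 (adjusted p = 0.61, 95% interval -0.27 to 0.13). Heterozygotes were below KEAP1-deficient adults in 4 genes, G6pdx (-0.61, adjusted p = 5e-04), Tkt (-0.71, adjusted p = 3.5e-05), Taldo1 (-0.52, adjusted p = 3e-04) and Idh1 (-0.79, adjusted p = 0.00011), and above in Idh2 (0.53, adjusted p = 0.00034), where 23.2% of all genes were lower and 21.6% higher (44.8%). With striated muscle as a covariate none of the 8 member calls against adult KEAP1 loss held (adjusted p = 0.36 to 0.99), with SEs of 0.30 to 0.42. For homozygotes against KEAP1 loss Tkt was then -0.49, Idh2 0.37 and Idh1 0.09. For heterozygotes against KEAP1 loss G6pdx was -0.72, Tkt -0.79, Taldo1 -0.47, Idh2 0.46 and Idh1 -0.02. Of these values, those of Idh1 were the ones that came near 0. Striated muscle sums of KEAP1-deficient adults lay wholly below those of either L30F genotype. The lost calls thus cannot tell muscle content from genotype.

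Nfe2l2, which encodes NRF2, averaged 1640.7 ± 371 normalised counts in L30F homozygous pups, 2513.1 ± 440 in KEAP1-deficient pups and 1301.3 ± 38.2 in wild-type pups (SD, n = 3 each). It rose with KEAP1 loss in pups (log2 fold change 0.93, SE 0.17, adjusted p = 0.0013), and its value of 0.31 in homozygous pups did not pass (adjusted p = 0.17) except without homozygous library 2 (0.47, adjusted p = 0.041). In adults it averaged 3564.8 ± 385 in heterozygotes, 1457.2 ± 304 in homozygotes, 4302.0 ± 96.2 with KEAP1 loss and 5661.6 ± 371 in wild type (n = 4 each). It fell by 0.67 in heterozygotes (adjusted p = 0.0028), by 1.98 in homozygotes (adjusted p = 1.2e-08) and by 0.39 with KEAP1 loss (adjusted p = 0.011). With striated muscle as a covariate the heterozygous call (-0.71, SE 0.17, adjusted p = 0.1) and the KEAP1 call (-0.30, SE 0.30, adjusted p = 0.56) were lost.

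Other genes of the pathway and of NADPH supply came from a list of 22, with 18 tested in pups and 17 in adults. Nnt, listed under 2 identifiers, was left out. In pups 6 rose and 0 fell in L30F homozygotes, and 7 rose and 0 fell with KEAP1 loss, with a median log2 fold change of 0.34 in each. All of these calls were rises, where 22% and 26.3% of all genes rose and 17.1% and 23.2% fell. In either direction 39.2% and 49.5% of all genes were called, more than the share of the list. Aldh1l2, a mitochondrial folate dehydrogenase that makes NADPH, averaged 1640.4 ± 191 in homozygous pups, 2426.0 ± 222 in KEAP1-deficient pups and 251.2 ± 20.6 in wild-type pups. Its log2 fold changes were 2.70 in homozygotes (SE 0.11, adjusted p = 2.9e-08) and 3.27 with KEAP1 loss (SE 0.11, adjusted p = 5.3e-09). Aldh1l1, its cytosolic counterpart, rose by 2.49 and 2.69 in the same groups (adjusted p = 2.5e-05 and 9.7e-06), and Dera, which cleaves deoxyribose phosphate, by 1.48 and 1.94 (adjusted p = 4.3e-05 and 4.1e-06). In adults 4 rose and 0 fell in heterozygotes, 8 and 0 in homozygotes, and 10 and 1 with KEAP1 loss, with medians of 0.20, 0.25 and 0.46, where 9.7%, 22.3% and 46.8% of all genes were called in either direction. Aldh1l2 rose by 0.92 in adult heterozygotes (adjusted p = 0.00095), by 1.73 in homozygotes (adjusted p = 4.4e-07) and by 1.37 with KEAP1 loss (adjusted p = 9.4e-07). Aldh1l1 rose by 0.99 in adult heterozygotes (adjusted p = 0.019), by 1.54 in homozygotes (adjusted p = 0.00045) and by 2.17 with KEAP1 loss (adjusted p = 2.8e-06). With striated muscle as a covariate the KEAP1 calls of Aldh1l2 (0.70, adjusted p = 0.15) and Aldh1l1 (1.54, adjusted p = 0.12) were lost. The heterozygous Aldh1l1 call was lost with the same covariate (1.29, adjusted p = 0.16) and without wild-type library 1 or 3 (adjusted p = 0.065 and 0.059). Mthfd2l, a folate dehydrogenase, rose by 0.47 in heterozygotes (adjusted p = 0.022), which failed without wild-type library 1 or 3 or heterozygous library 3 (adjusted p = 0.053 to 0.069) and with striated muscle as a covariate (0.38, adjusted p = 0.43). Dera rose by 0.88 in adult homozygotes (adjusted p = 0.00071). Me2, a mitochondrial malic enzyme that mainly uses NAD, rose by 1.21 with adult KEAP1 loss (adjusted p = 8.4e-08). Me3, the mitochondrial malic enzyme that uses NADP, did not pass there (-0.51, limma adjusted p = 0.61).

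Of 18 enzymes that use NADPH, 13 rose and 2 fell in L30F homozygous pups (median 1.82). With KEAP1 loss in pups 14 rose and 2 fell (median 2.23). In these groups 39.2% and 49.5% of all genes were called in either direction. The list is mostly reductases and is called that below, but it also holds Sqle, an epoxidase, and Fasn, a synthase. The largest rises were in Nqo1, a quinone reductase, which averaged 9988.6 ± 445 in homozygotes, 12118.7 ± 1050 with KEAP1 loss and 76.7 ± 4.42 in wild-type pups (7.01 and 7.28, adjusted p = 1e-11 and 6.9e-12). Akr1b8, an aldo-keto reductase, rose by 5.77 and 6.49 (adjusted p = 2.8e-11 and 1.1e-11) and Cbr3, a carbonyl reductase, by 5.10 and 5.52 (adjusted p = 2.5e-10 and 1.2e-10). Among adults 7 rose and 2 fell in heterozygotes, 10 and 3 in homozygotes, and 12 and 4 with KEAP1 loss (medians 0.41, 0.60 and 0.96), beside 9.7%, 22.3% and 46.8% of all genes. In heterozygotes Nqo1 rose by 1.95 (adjusted p = 1.3e-07), Blvrb, biliverdin reductase B, by 1.66 (adjusted p = 2e-06) and Cbr1, another carbonyl reductase, by 1.54 (adjusted p = 2.3e-06). Nqo1, Akr1c13 and Blvrb led in homozygotes, with 2.51, 2.48 and 2.23 (adjusted p = 2e-09, 0.00027 and 2.5e-08). With adult KEAP1 loss Akr1b8 rose by 3.82 and Akr1c13 by 3.16 (adjusted p = 2.2e-09 and 3.9e-06), and Akr1c12 averaged 23.9 ± 4.18, against 0.481 ± 0.637 in wild type (adjusted p = 2.2e-06). With striated muscle as a covariate the calls of Akr1c13 (2.34, SE 0.91, adjusted p = 0.12) and Akr1c12 (3.59, SE 1.16, adjusted p = 0.066) were lost. Akr1c12 and Akr1c13 are close paralogs, between which reads may be shared. The 5 NAD-linked isocitrate and malate dehydrogenases, which make NADH instead, ranged from -0.33 to 0.14 in homozygous pups (0 rose, 1 fell) and from -0.36 to 0.35 with KEAP1 loss in pups (1 rose, 1 fell). In adults 2 rose in heterozygotes and 0 in homozygotes, and with KEAP1 loss all 5 fell, by log2 fold changes of -0.52 to -0.33, where 22.7% of all genes fell. Of 10 striated muscle markers 4 rose and 0 fell in adult heterozygotes, and 1 rose and 8 fell with adult KEAP1 loss. With these markers as a covariate 0 of the 5 genes passed by limma in either group. The summed markers of both groups lay wholly outside the wild-type range, so the lost calls cannot tell muscle content from genotype.

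**Figure D4:**
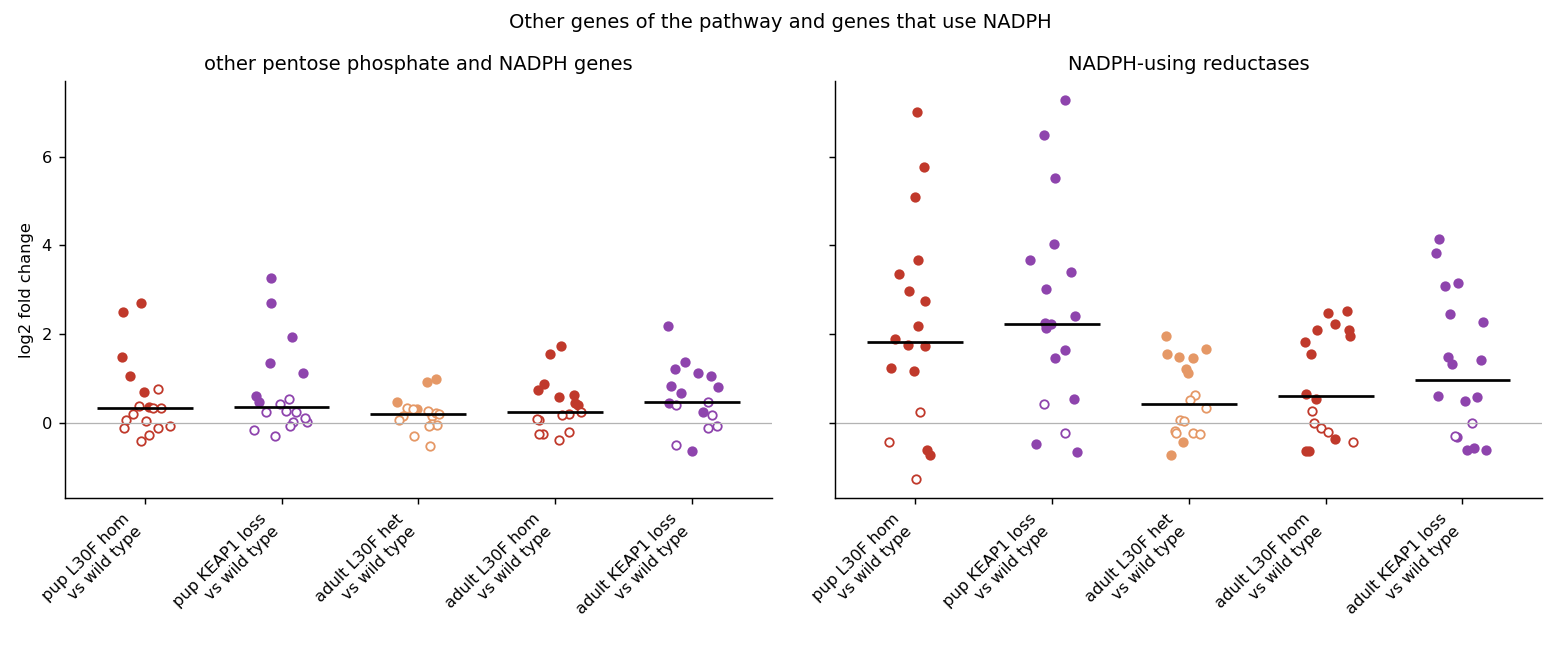
Log2 fold changes against wild type of the same age for other pentose phosphate and NADPH genes (left) and for enzymes that use NADPH, mostly reductases (right). Filled points passed the test, open points did not, and black lines are medians over tested genes of the list. The highest reductase in pups is Nqo1 at 7.28, and the highest gene of the other list is Aldh1l2 at 3.27, both with KEAP1 loss.

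Over the 5 comparisons with wild type, the genes whose log2 fold changes lay nearest to those of G6pdx, among 11619 with at least 100 normalised counts on average at both ages, were Mt1, Hsd17b7, Cyp2b10, Htatip2 and Sult2b1. Their root mean square differences from G6pdx were 0.18, 0.20, 0.23, 0.26 and 0.30. Among the members Pgd was nearest, at 0.52, and Idh2 furthest, at 2.71. The comparisons of an age share wild-type libraries, so this likeness is a description only.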

How the data were processed

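Total RNA of whole esophagus was made into strand-specific libraries, per the labels' protocols; Salmon and the GRCm39 build are named in the submitters' processing notes. The deposited values are on a log2 scale, and from the values the authors' tables hold log2(normalised count + 4), with pups and adults in separate tables normalized separately. They were converted back to normalised counts, and whole reads recovered from these gave the depth. The filter asked for a normalised count of 1 or more in a number of libraries equal to the size of the smallest group. Genes that passed were tested with limma 3.58.1 (R 4.3.3, statmod 1.5.0; trend and robust) on log2(value + 1), all groups of a table in 1 fit, with Benjamini-Hochberg adjustment over all genes tested and a threshold of 0.05. The age difference, adult minus pup log2 fold change, was divided by its standard error, and its degrees of freedom followed Welch and Satterthwaite. The scripts were tested on simulated data. The alternatives were other scalings, filters, offsets and fits, marker covariates, a fold threshold and leaving out each library.

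The members and lists were chosen with earlier results of these data known. Named genes were the 10 members, Keap1, Nfe2l2, the 3 called genes with the largest change per comparison with wild type in each of the lists of other NADPH genes and of reductases, and the 5 genes nearest to G6pdx. Promoter sequences are from RefSeq (GRCm38.p6), a different build from that of the counts, and were matched by symbol for all 10 members. For precision, values rest on 10.9 to 32.3 M (mega) reads per library.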

Additional observations from a re-analysis of the deposited data

Results flagged for a closer look

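The effect of a genotype differed between adults and pups, by the test of the difference itself, in 18 of the 20 member results. That test was a t-test on the adult minus pup log2 fold change, with adjustment over all genes. For the L30F homozygous effect the differences were -2.92 in G6pdx, -0.89 in Pgls, -2.93 in Pgd, -0.89 in Rpia, -1.64 in Tkt, -1.31 in Taldo1, -3.32 in Me1, -1.08 in Idh1 and 0.56 in Idh2. For KEAP1 loss they were -3.06 in G6pdx, -1.03 in Pgls, -3.35 in Pgd, -1.02 in Rpia, -1.57 in Tkt, -1.57 in Taldo1, -3.54 in Me1, -0.69 in Idh1 and 0.36 in Idh2. Of all 19031 genes 33.5% differed for L30F and 47.1% for KEAP1 loss. As given above, the KEAP1 calls of Rpia, Idh1 and Idh2 were each lost in other fits. Nfe2l2 differed by -2.29 for L30F and by -1.33 for KEAP1 loss. No library stood apart by Dixon's test in the 48 adult groups of 4 tested, where chance gives about 1 in 20.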

How the results depend on the processing

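Across 83 member results and 13 other settings, 985 of 1079 fits had the same direction and side of the threshold, 79 lost and 5 gained a call, and 10 changed sign; on leaving out single libraries the figures were 1294 of 1347, 46, 4 and 3. The cause of these changes was not tested. The number of members called, 3 between pup mutants, was 1 with only the groups compared, with striated muscle as a covariate or in CPM, 0 at 2-fold or more, and 1 to 3 without single libraries. In adult heterozygotes (3) it was 0 with striated muscle, 1 with Ddx3y, 0 at 2-fold, and 1 to 4 without single libraries. In adult homozygotes (5) it was 3 with adipose markers and 0 at 2-fold. With adult KEAP1 loss (6) it was 2 with striated muscle and 2 at 2-fold. Between homozygotes and heterozygotes (2) it was 1 with only the groups compared, 1 with striated muscle, 0 with Ddx3y, 0 at 2-fold, and 1 to 3 without single libraries. For either adult L30F genotype against KEAP1 loss it was 0 with striated muscle and 0 at 2-fold.

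Signs changed with adipose markers for Keap1 in heterozygotes (-0.02) and for Pgd (0.02) and Idh1 (-0.01) in adult homozygotes. With striated muscle they changed for Rpia (-0.06) and Idh1 (0.11) in heterozygotes, Rpia (-0.01) in adult homozygotes, Idh1 between homozygotes and KEAP1 loss (0.09) and the L30F age difference of Rpe (0.01). With Ddx3y the sign changed for Keap1 in homozygous pups (-0.04). In CPM they changed for Rpe (-0.03) and Keap1 (-0.11) in homozygous pups, Keap1 in heterozygotes (-0.04) and both age differences of Rpe (0.17 and 0.22). Without single libraries the ranges were -0.06 to 0.23 for Keap1 in homozygous pups, -0.03 to 0.07 for Keap1 and -0.15 to 0.01 for Pgd in heterozygotes, and -0.19 to 0.03 for Pgd and -0.01 to 0.17 for Rpia in adult homozygotes.

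In CPM the share of all calls that were higher was 33.7% against 56.3% in homozygous pups, 27.2% against 53.1% in KEAP1-deficient pups, 87.2% against 42.3% between pup mutants, 37.4% against 49.5% in heterozygotes, 66.8% against 49.3% between homozygotes and heterozygotes, 35.2% against 48.3% between heterozygotes and KEAP1 loss, and 65.5% against 40.5% and 72.6% against 43.7% for the L30F and KEAP1 age differences. Of same-number pairs 2 of 24 in adults and 1 of 9 in pups correlated above 0.1, beside 6 of 72 and 1 of 18 pairs of different number. The highest value was in a same-number pair, wild-type pup library 3 and KEAP1-deficient pup library 3 (r = 0.285). With so few libraries in a group this check cannot exclude pairing by replicate number. With the replicate block 82 of the 83 member results kept their call, and Rpe with adult KEAP1 loss gained one (0.20, adjusted p = 0.027). Over all genes the number called ranged, across the other settings, from 3295 to 9703 in homozygous pups (8225 as reported), 4676 to 12373 in KEAP1-deficient pups (10404), 148 to 919 between pup mutants (875; 222 with the replicate block, 47 to 924 without single libraries), 105 to 2125 in heterozygotes (1927; 623 to 2448 without single libraries), 1167 to 4511 in adult homozygotes (4420), 1871 to 10534 with adult KEAP1 loss (9290), 547 to 3441 between homozygotes and heterozygotes (3249; 2132 to 3314), 12 to 5328 between homozygotes and KEAP1 loss (5248), 42 to 9244 between heterozygotes and KEAP1 loss (8891), 3131 to 7212 for the L30F age difference (6369) and 3488 to 10168 for that of KEAP1 loss (8967).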

Other observations

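Of the NADPH-using enzymes counted above, 2 that serve different pathways were chosen after their values were seen. Gsr, glutathione reductase, rose in L30F homozygous pups (log2 fold change 2.75, limma adjusted p = 5.8e-09) and KEAP1-deficient pups (3.01, adjusted p = 2.4e-09), and also in adult heterozygotes (1.13, adjusted p = 0.00027), homozygotes (2.08, adjusted p = 1.3e-07) and KEAP1-deficient mice (3.08, adjusted p = 5.1e-10). With striated muscle markers as a covariate the heterozygous Gsr call was lost (1.03, adjusted p = 0.054). Fasn, fatty acid synthase, rose by 1.24 in homozygous pups (adjusted p = 6.9e-06) and by 1.65 with KEAP1 loss in pups (adjusted p = 5.5e-07). In adults Fasn fell by 0.63 in homozygotes (adjusted p = 0.046) and by 0.62 with KEAP1 loss (adjusted p = 0.026). The homozygous Fasn call was lost in 12 of 16 fits without 1 library (adjusted p up to 0.14) and the KEAP1 call in 4 of 16 (up to 0.095), and with adipose markers as a covariate both were lost (-0.16, adjusted p = 0.5, and -0.33, adjusted p = 0.058). Both were also lost with striated muscle markers as a covariate (-0.67, adjusted p = 0.078, and -0.42, adjusted p = 0.67).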
